A study of Mus musculus with 6 samples.

Results

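The 10 genes described here belong to the bone morphogenetic protein (BMP) pathway: the ligands Bmp7 and Bmp4, the protease Bmp1, the receptors Bmpr1a and Bmpr2, the signal carrier Smad1, its inhibitor Smad6, and the target genes Id1, Id2 and Id3. They were picked by symbol from the 54146 genes counted in each library, and the set was put together because Bmp7 had no read in either knockout clone. The clone-against-WT values of these 10 genes are therefore a description, and no test is attached to them. The cells were 4T1, a mouse mammary carcinoma line of BALB/c origin grown in culture. KO clone 1 and KO clone 2 are 2 lines labelled Mki67-/-, the genotype that removes Ki-67, a nuclear protein of dividing cells; WT cells have the label wild type. No treatment was given to any group, and each group had 2 libraries of ribosomal RNA-depleted total RNA. Each knockout line is a single clone, so an effect of the genotype and a difference between individual cell lines cannot be told apart. The labels do not say whether the WT cells are a clone or the parental population. Whether a group's 2 libraries are from independent cultures is not given in the labels, and the p-values reflect the scatter of these libraries alone, part or all of which may be technical.

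BMP ligands are secreted dimers that bring type I and type II receptor kinases together on the cell surface. The type I receptor phosphorylates SMAD1 and its relatives, which join SMAD4, enter the nucleus and switch on targets. Id1, Id2, Id3 and Smad6 are textbook targets: the ID proteins hold back basic helix-loop-helix transcription factors, and SMAD6 feeds back on the receptors. In mammary epithelium BMP signals take part in gland development, and in carcinomas the Id genes are linked with an undifferentiated state.

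Libraries held 22597596 and 22658499 reads assigned to genes in KO clone 1, 17103941 and 22275937 in KO clone 2, and 10428970 and 16852152 in WT cells. Mki67 itself stood at 85.8 and 103 reads per 1000000 gene reads after scaling (CPM) in KO clone 1, 39.9 and 52.7 CPM in KO clone 2, and 736 and 647 CPM in WT cells, so reads of the targeted gene were lower but not absent in both clones. Mammary epithelial markers summed to 5738 and 5728 CPM in KO clone 1, 6113 and 5733 CPM in KO clone 2, and 3897 and 4500 CPM in WT cells, with 8 of 9 passing the filter on low counts and Krt5 at 0. Krt18, Krt7 and Epcam were higher in both clones, while Cldn4 was lower in both (log2 fold changes -0.88 and -0.68). Krt14 was higher in KO clone 2 (0.94) and not called in KO clone 1 (0.33), Cdh1 was lower in KO clone 2 (-0.35), and Krt8 and Krt19 were not called. Of 10 leukocyte markers 2 passed (Csf1r and Cd74), Cd3e, Adgre1 and Nkg7 were at 0 in all 6 libraries, and the sum ran from 2.61 to 3.5 CPM in the clones against 21.7 to 34.0 CPM in WT cells. Cd74 made up nearly all of the WT sum, at 20.7 and 32.5 CPM, while Csf1r averaged 2.22 CPM in KO clone 1, 3.12 CPM in KO clone 2 and 1.14 CPM in WT cells. Of 10 fibroblast and endothelial markers 1 passed (Pdgfra), Col3a1, Lum, Cdh5 and Kdr were at 0, and the sum ran from 14.8 to 14.9 CPM in the clones against 39.8 CPM in both WT libraries. The part of these markers in the results below was not tested. In bulk RNA, fewer cells of a type and less RNA per cell cannot be told apart.

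The promoters of 3 targets are shown because these genes had lower values in the clones than in WT cells while Id1, a target of the same pathway, had higher ones. Of the 10 genes, 7 were matched in RefSeq's mouse promoter table (build GRCm38.p6), and Bmp7, Bmp1 and Id1 were not matched. Each sequence is the 250 bases before the transcription start, and that of Smad6 runs 4 bases past it. Capitals mark GGCGCC, a GC-rich core found in BMP-responsive elements, or GTCTAGAC, a palindrome that SMAD proteins bind.
Smad6, chr9:64022056-64022309, minus strand: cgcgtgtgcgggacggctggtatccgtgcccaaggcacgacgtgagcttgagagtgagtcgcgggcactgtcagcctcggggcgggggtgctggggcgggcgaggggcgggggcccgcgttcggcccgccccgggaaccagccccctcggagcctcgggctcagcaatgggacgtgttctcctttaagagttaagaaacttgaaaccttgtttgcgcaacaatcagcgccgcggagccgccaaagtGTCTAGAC
Id2, chr12:25096093-25096342, minus strand: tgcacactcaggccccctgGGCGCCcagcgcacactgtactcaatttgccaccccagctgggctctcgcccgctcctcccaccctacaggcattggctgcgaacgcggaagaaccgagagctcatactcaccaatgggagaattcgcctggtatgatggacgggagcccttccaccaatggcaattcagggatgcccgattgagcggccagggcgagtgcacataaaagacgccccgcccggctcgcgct
Id3, chr4:136143572-136143821, plus strand: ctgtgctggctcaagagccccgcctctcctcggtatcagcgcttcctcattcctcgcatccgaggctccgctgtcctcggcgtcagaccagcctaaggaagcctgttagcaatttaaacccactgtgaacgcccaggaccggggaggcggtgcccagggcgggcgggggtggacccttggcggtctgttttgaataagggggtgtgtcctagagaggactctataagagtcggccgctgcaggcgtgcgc
Both motifs read the same on either strand and do not overlap each other. In the window of 250 bases before to 50 after the start, GTCTAGAC was found in 70 of 32851 promoters (0.213%) and GGCGCC in 3898 (11.9%). Smad6 holds GTCTAGAC beginning 4 bases before its start, and Id2 holds GGCGCC beginning 231 bases before its start. Bmpr1a and Bmpr2 each hold GGCGCC, beginning 198 and 105 bases before the start. Id3, Bmp4 and Smad1 hold neither in this window. A match is a description of letters and says nothing of binding in these cells.

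Bmp7 was read in WT cells and in no clone library. Bmp7 (ENSMUSG00000008999, chr2:172868012-172940321 on the minus strand, GRCm38), a secreted ligand, had 0 and 0 reads in KO clone 1, 0 and 0 in KO clone 2, and 129 and 255 in WT cells, or 12.7 and 15.1 CPM (13.9 ± 1.65, SD, n = 2). With 3 counts over the 2 libraries of a clone as the limit a count of 0 allows (0.0668 CPM in KO clone 1 and 0.0747 CPM in KO clone 2), it was at least 208-fold lower in KO clone 1 and at least 186-fold lower in KO clone 2 than in WT cells. Such limits cover counting error only. Reads on the opposite strand of Bmp7 were 0 in all 4 clone libraries and 1 and 2 in WT cells.

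The other ligands were near 0 throughout. Bmp4 (ENSMUSG00000021835, chr14:46383520-46390669, minus strand) had 0 reads on its strand in all 6 libraries, which allows up to 0.0668 CPM in KO clone 1, 0.0747 CPM in KO clone 2 and 0.111 CPM in WT cells. A list of 12 further ligand genes of the family had 9 reads in all, never more than 2 in a library, and 7 of the 12 had none. Bmp7 was thus the one ligand of the 14 examined that passed the filter, and it did so through WT cells.

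**Figure D1:**
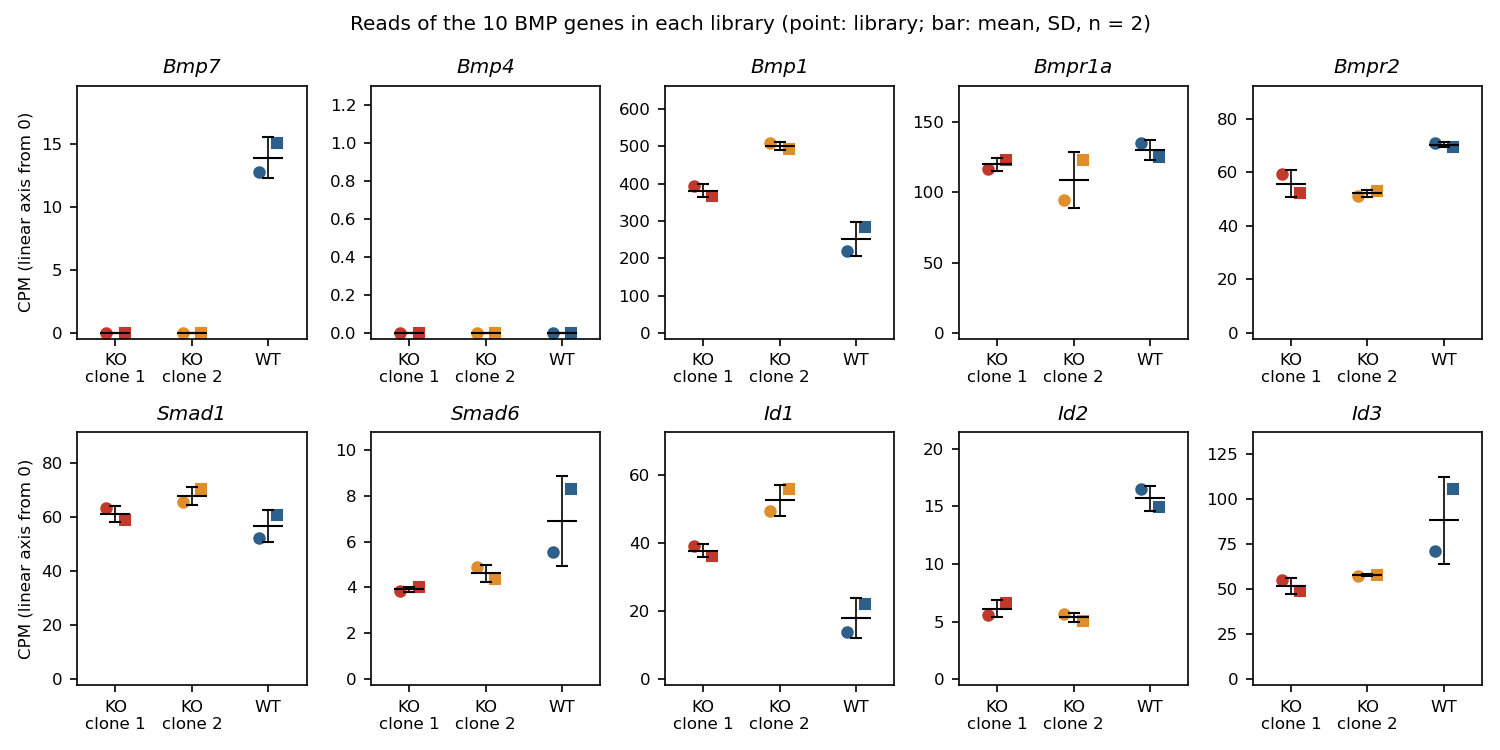
CPM (linear axes from 0) of the 10 genes in each library of KO clone 1, KO clone 2 and WT; points are libraries (circle replicate 1, square replicate 2), bars are means with SD, n = 2. Bmp7 is at 0 in the 4 clone libraries and at 12.7 and 15.1 CPM in WT, and Id1 is higher in both clones while Id2, Id3 and Smad6 are lower.

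Both receptors were read in every library, at values somewhat below WT in the clones. Bmpr1a (ENSMUSG00000021796, chr14:34410734-34503341, minus strand), a type I receptor kinase, had 117 and 123 CPM in KO clone 1, 94.6 and 123 CPM in KO clone 2, and 135 and 125 CPM in WT cells. Its log2 fold change was -0.12 (SE 0.130) in KO clone 1 and -0.26 (SE 0.130) in KO clone 2 against WT, the second of which became -0.08 without KO clone 2 replicate 1 and -0.47 without KO clone 2 replicate 2. Bmpr2 (ENSMUSG00000067336, chr1:59763400-59879014, plus strand), the type II receptor kinase that phosphorylates the type I receptor, had 59.5 and 52.1 CPM in KO clone 1, 51.2 and 53.1 CPM in KO clone 2, and 71.0 and 69.6 CPM in WT cells. All 4 clone libraries lay below both WT libraries for each receptor, by a small margin for Bmpr1a. The log2 fold change of Bmpr2 was -0.33 (SE 0.118) in KO clone 1 and -0.43 (SE 0.119) in KO clone 2, and -0.18 and -0.25 with each chromosome's median change removed.

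Smad1 was within 0.26 of its WT level on the log2 scale in both clones, and Smad6 was lower in both. Smad1 (ENSMUSG00000031681, chr8:79338395-79399518, minus strand), which carries the signal into the nucleus, had 63.2 and 58.9 CPM in KO clone 1, 65.3 and 70.1 CPM in KO clone 2, and 52.3 and 60.7 CPM in WT cells. KO clone 1 overlapped WT and KO clone 2 lay above it, with log2 fold changes of 0.11 (SE 0.122) and 0.26 (SE 0.122), or 0.23 and 0.38 without WT replicate 2. Smad6 (ENSMUSG00000036867, chr9:63953076-64022059, minus strand), the inhibitory SMAD of the BMP branch, had 3.83 and 4.00 CPM in KO clone 1, 4.89 and 4.36 CPM in KO clone 2, and 5.52 and 8.27 CPM in WT cells. Every clone library lay below both WT libraries. The log2 fold change was -0.85 (SE 0.216) in KO clone 1 and -0.61 (SE 0.215) in KO clone 2. The WT libraries differed 1.5-fold for Smad6, and without WT replicate 2 the log2 fold changes became -0.49 and -0.26.

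The 3 Id genes did not move one way: Id2 and Id3 were lower in both clones and Id1 was higher. Id1 (ENSMUSG00000042745, chr2:152736251-152737410, plus strand) had 39.1 and 36.4 CPM in KO clone 1, 49.3 and 55.8 CPM in KO clone 2, and 13.9 and 22.1 CPM in WT cells. Its 4 clone libraries lay above both WT libraries, with log2 fold changes of 1.04 (SE 0.171) in KO clone 1 and 1.52 (SE 0.171) in KO clone 2. Id2 (ENSMUSG00000020644, chr12:25093799-25097140, minus strand) had 5.60 and 6.65 CPM in KO clone 1, 5.65 and 5.09 CPM in KO clone 2, and 16.5 and 14.9 CPM in WT cells. The clone libraries were close together and well below WT, with log2 fold changes of -1.35 (SE 0.170) and -1.55 (SE 0.175). Id3 (ENSMUSG00000007872, chr4:136143497-136145755, plus strand) had 55.0 and 48.7 CPM in KO clone 1, 57.4 and 58.1 CPM in KO clone 2, and 71.1 and 105 CPM in WT cells. Its clone libraries lay below both WT libraries, with log2 fold changes of -0.77 (SE 0.155) and -0.62 (SE 0.155). WT replicate 2 exceeded WT replicate 1 by 1.59-fold for Id1 and 1.48-fold for Id3, within the 0.639 to 1.69 that spans the 5th to 95th percentile of this ratio over all genes tested. The same span was narrower in the clones, at 0.729 to 1.36 in KO clone 1 and 0.647 to 1.47 in KO clone 2. The fit shares its estimate of the spread between groups, so standard errors against WT may understate the scatter of WT cells. Without WT replicate 2 the log2 fold changes of Id3 were -0.45 in KO clone 1 and -0.30 in KO clone 2, and those of Id1 were 1.44 and 1.92. With each chromosome's median change removed, Id1 stood at 0.79 in KO clone 1 and 1.23 in KO clone 2.

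**Figure D2:**
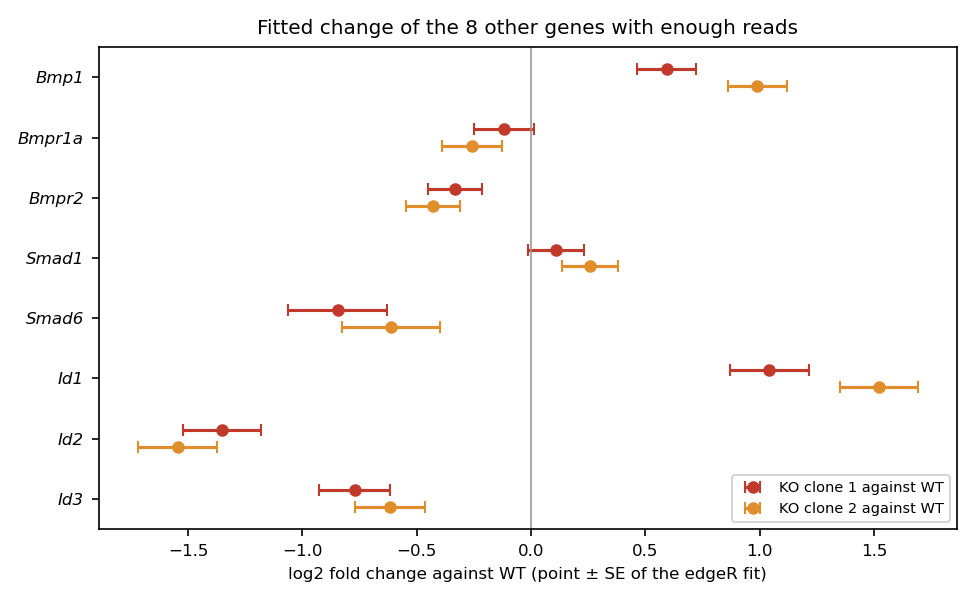
Log2 fold change against WT (horizontal axis) of the 8 genes other than Bmp7 that passed the filter, with the standard error of the edgeR fit; KO clone 1 is drawn above KO clone 2 for each gene. Id1 lies at 1.04 and 1.52, and Id2 at -1.35 and -1.55.

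The make-up of the Id transcripts therefore differed between the clones and WT cells, while their sum per kilobase of exon did not separate them. Per kilobase of exon, Id1, Id2 and Id3 together had 64.0 ± 3.86 CPM per kb in KO clone 1, 79.8 ± 4.01 in KO clone 2 and 71.2 ± 18.0 in WT cells (SD, n = 2 each), and the WT libraries, at 58.4 and 84.0 CPM per kb, spanned all 4 clone libraries. Id1 made up 50.9 ± 0.428% of this sum in KO clone 1, 56.8 ± 2.06% in KO clone 2 and 21.6 ± 1.53% in WT cells. Id3 made up 45.2% in KO clone 1, 40.5% in KO clone 2 and 69.0% in WT cells, and Id2 made up 3.95%, 2.77% and 9.43%. The sum and the shares depend on the length used, which was that of all annotated exons of a gene, not of the transcripts present. In CPM without division by length, both KO clone 1 libraries had a sum below both WT libraries, and KO clone 2 lay between the WT libraries. Id1 reads per Id3 read were 0.712 and 0.746 in KO clone 1, 0.859 and 0.961 in KO clone 2, and 0.196 and 0.210 in WT cells. This ratio uses no library scaling, and the WT libraries gave nearly the same value although each gene alone differed by about the same factor between them.

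**Figure D3:**
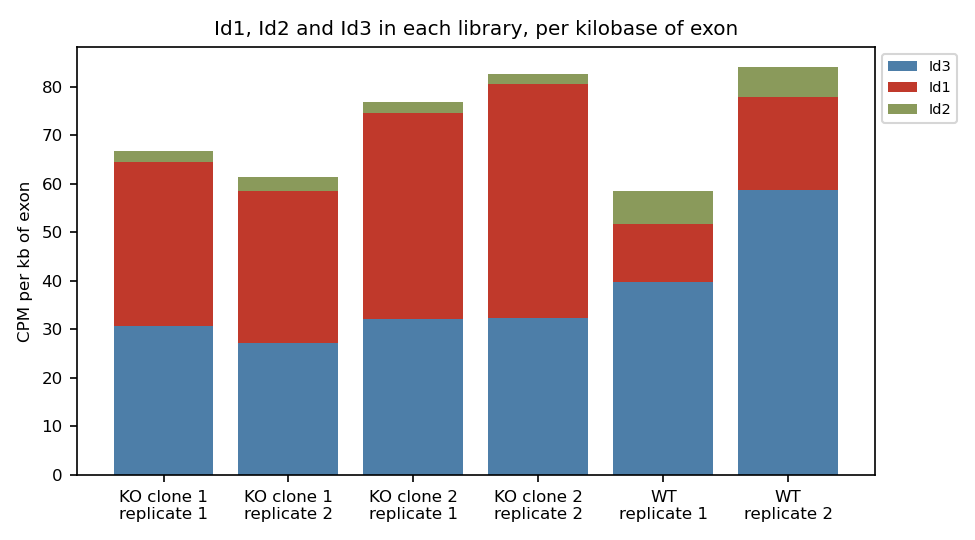
Stacked bars of Id3, Id1 and Id2 in CPM per kilobase of exon for each of the 6 libraries, KO clone 1 and KO clone 2 left of WT. Id1 takes 50.9% and 56.8% of the bar in the clones and 21.6% in WT, while the heights of the WT bars (58.4 and 84.0) lie on either side of all 4 clone bars.

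Bmp1 had the highest level per kilobase of the 10 genes in KO clone 1 and KO clone 2 and the second highest, after Id3, in WT cells. Despite its name it is no ligand: it is a secreted metalloprotease that trims procollagen and cuts the BMP antagonist chordin. Bmp1 (ENSMUSG00000022098, chr14:70474558-70520234, minus strand) had 393 and 368 CPM in KO clone 1, 509 and 493 CPM in KO clone 2, and 220 and 284 CPM in WT cells. Its clone libraries lay above both WT libraries, with log2 fold changes of 0.59 (SE 0.128) in KO clone 1 and 0.99 (SE 0.129) in KO clone 2. In CPM per kb the order of levels in WT cells was Id3 (49.2), Bmp1 (28.4), Bmpr1a (20.5), Id1 (15.5), Smad1 (9.02), Id2 (6.44), Bmpr2 (3.91), Bmp7 (3.46) and Smad6 (2.15). In KO clone 1 it was Bmp1 (42.9), Id1 (32.5), Id3 (29.0), Bmpr1a (18.9), Smad1 (9.75), Bmpr2 (3.10), Id2 (2.51) and Smad6 (1.22). KO clone 2 had Bmp1 at 56.5, Id1 at 45.3, Id3 at 32.2, Bmpr1a at 17.1, Smad1 at 10.8, Bmpr2 at 2.90, Id2 at 2.20 and Smad6 at 1.44 CPM per kb.

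Large parts of the transcriptome differed between each clone and WT cells, and the values of the BMP genes stand against that. At an adjusted p under 0.05 (quasi-likelihood test of edgeR, Benjamini-Hochberg adjustment over 13755 genes), 50.9% of all genes were called in KO clone 1 (24.7% higher and 26.2% lower) and 53.4% in KO clone 2 (25.3% higher and 28.2% lower), with median log2 fold changes of -0.01 and -0.02 over all genes. Both comparisons use the same WT libraries. The median log2 fold change of the 8 BMP genes other than Bmp7 that passed the filter was -0.23 in KO clone 1 and -0.34 in KO clone 2. Values did not overlap between clone and WT for 2 genes higher and 5 lower in KO clone 1, where 37.3% of all genes lay apart higher and 38.2% lower. For KO clone 2 they were 3 higher and 5 lower, against 35.8% and 38.8% of all genes. Nothing is read from these counts, since the set was chosen on these values.

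Id1 and Bmp1 were higher in KO clone 2 than in KO clone 1, a contrast whose fold changes do not rest on WT levels, although the WT libraries enter the shared estimate of the spread. Id1 averaged 52.6 ± 4.54 CPM in KO clone 2 and 37.8 ± 1.96 CPM in KO clone 1 (SD, n = 2 each), a log2 difference of 0.48 (SE 0.159, edgeR adjusted p = 0.0411). Bmp1 averaged 501 ± 11 CPM in KO clone 2 and 381 ± 17.8 CPM in KO clone 1, a log2 difference of 0.40 (SE 0.127, edgeR adjusted p = 0.0339). These were 2 of the 8 genes tested, and 23.5% of all genes were called between the clones (12.1% higher and 11.4% lower in KO clone 2). Values did not overlap for 5 of the 8, all higher in KO clone 2, against 34% of all genes higher and 34.2% lower. The other 6 did not pass the test. Their log2 differences were -0.14 for Bmpr1a (SE 0.129), -0.10 for Bmpr2 (SE 0.118), 0.15 for Smad1 (SE 0.120), 0.23 for Smad6 (SE 0.217), -0.19 for Id2 (SE 0.179) and 0.15 for Id3 (SE 0.154), with edgeR adjusted p from 0.389 to 0.580. Both calls ended when any 1 of the 4 clone libraries was left out, with adjusted p of 0.106 to 0.238 for Bmp1 and 0.0620 to 0.267 for Id1, while the log2 differences ranged from 0.35 to 0.44 for Bmp1 and from 0.38 to 0.57 for Id1. They also ended when each chromosome's median change was removed, at 0.07 for Bmp1 (edgeR adjusted p = 0.744) and 0.44 for Id1 (edgeR adjusted p = 0.0611). The median log2 difference of the tested genes of chromosome 14, which carries Bmp1, was 0.33 between the clones.

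Other genes of the pathway moved in both directions. Of 79 further genes listed by role, 38 passed the filter, 41 did not and 22 of those 41 had no read. In KO clone 1, 21 rose and 8 fell against WT (median log2 fold change 0.34 over the 38, -0.01 over all genes). With each chromosome's median change removed the counts in KO clone 1 were 14 and 9, and with upper-quartile scaling 17 and 8. With no filter on low counts 57 of the listed genes were tested, and 22 rose and 12 fell in KO clone 1 (3976 and 3294 of all 26172 genes). In KO clone 2, 14 rose and 8 fell (median 0.03, against -0.02 over all genes). With no filter the counts in KO clone 2 were 14 and 11 (3924 and 3640 of all 26172 genes). The counts with the filter include Hey1 in both clones and Hey2 in KO clone 1, which passed it through clones alone. The shares called over all genes were 50.9% in KO clone 1 (24.7% higher and 26.2% lower) and 53.4% in KO clone 2 (25.3% higher and 28.2% lower). The counts by role below stand against the same shares.

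**Figure D4:**
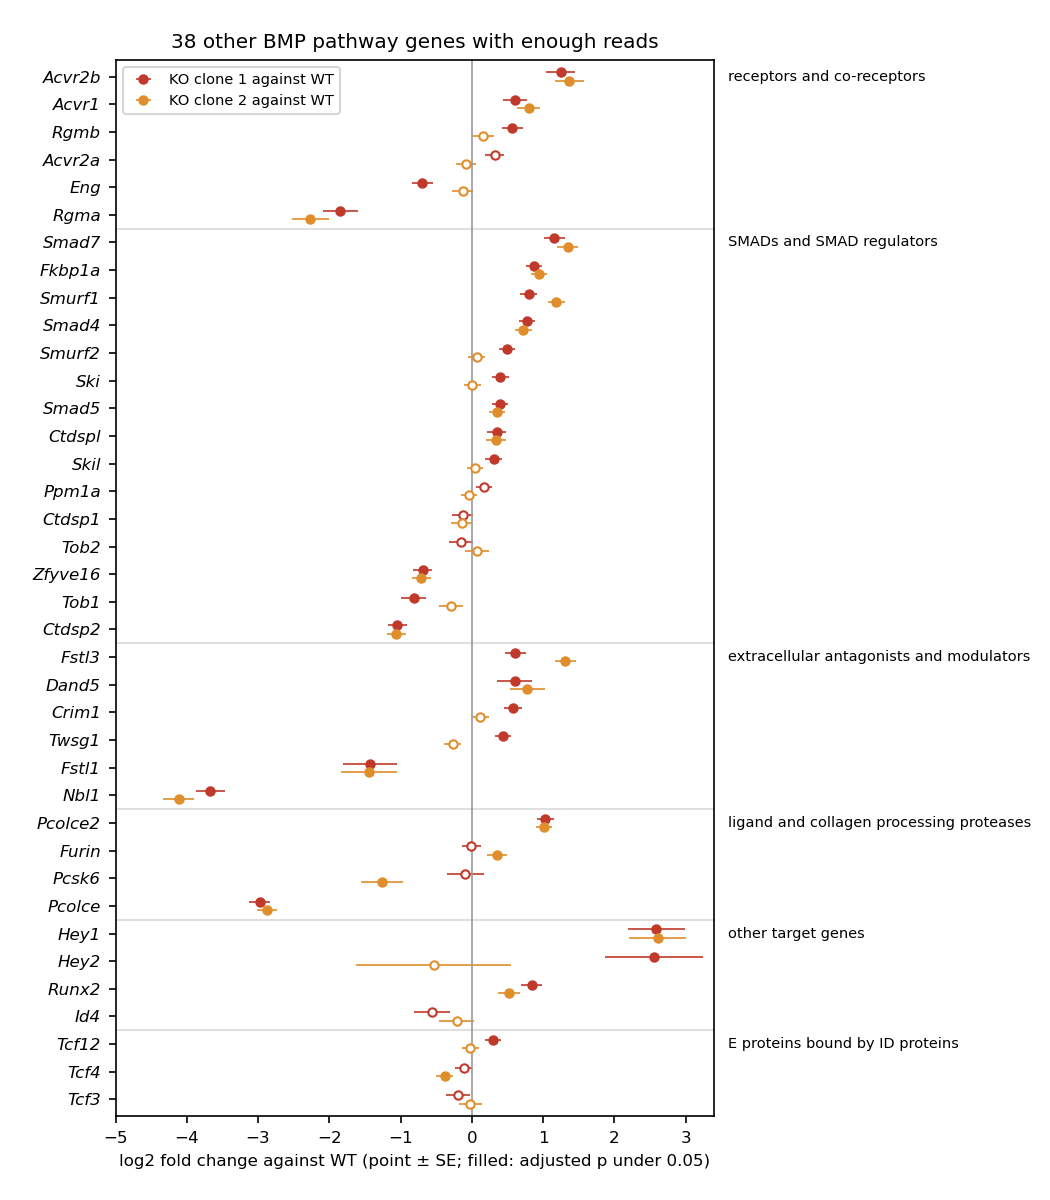
Log2 fold change against WT (horizontal axis, with SE) of the 38 further BMP pathway genes that passed the filter, grouped by role; KO clone 1 is above KO clone 2, and filled points have an adjusted p under 0.05. Nbl1 and Pcolce lie farthest to the left, at -3.67 and -2.98 in KO clone 1, and Hey1 lies at 2.59 in KO clone 1 and 2.61 in KO clone 2.

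Among the receptors and co-receptors, 6 of 10 were tested, of which 3 rose and 2 fell in KO clone 1 and 2 rose and 1 fell in KO clone 2. Acvr2b, a type II receptor shared with activins, had 9.96 and 9.31 CPM in KO clone 1, 9.25 and 11.7 CPM in KO clone 2, and 3.55 and 4.43 CPM in WT cells. It rose by a log2 fold change of 1.25 in KO clone 1 (SE 0.199, edgeR adjusted p = 8.02e-05) and 1.37 in KO clone 2 (SE 0.199, edgeR adjusted p = 2.81e-05). Acvr1, a type I receptor that BMP7 uses, averaged 13.9 ± 0.321 CPM in KO clone 1, 16.0 ± 2.32 CPM in KO clone 2 and 9.09 ± 0.585 CPM in WT cells, with log2 fold changes of 0.61 (edgeR adjusted p = 0.00547) and 0.80 (edgeR adjusted p = 0.000644). The call in KO clone 1 ended with chromosome medians removed, at 0.35 (edgeR adjusted p = 0.0901). Rgma, a membrane-anchored BMP co-receptor, had 2.56 and 2.16 CPM in KO clone 1, 2.18 and 1.42 CPM in KO clone 2, and 6.90 and 9.80 CPM in WT cells, so every clone library was below both WT libraries. Its log2 fold change was -1.85 in KO clone 1 (edgeR adjusted p = 1.21e-05) and -2.26 in KO clone 2 (edgeR adjusted p = 2.32e-06).

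Smad7 went the other way from Smad6. The SMADs and SMAD regulators had 15 of 17 tested, of which 9 rose and 3 fell in KO clone 1 and 6 rose and 2 fell in KO clone 2. Smad7, the inhibitory SMAD that acts on both the transforming growth factor beta and BMP branches, had 61.4 and 64.2 CPM in KO clone 1, 68.2 and 74.7 CPM in KO clone 2, and 23.4 and 32.4 CPM in WT cells. It rose by a log2 fold change of 1.16 in KO clone 1 (SE 0.145, edgeR adjusted p = 6.67e-06) and 1.34 in KO clone 2 (SE 0.145, edgeR adjusted p = 1.22e-06). Smurf1, a ubiquitin ligase that marks SMAD1 and SMAD5 for breakdown, averaged 181 ± 6.72 CPM in KO clone 1, 237 ± 9.33 CPM in KO clone 2 and 104 ± 7.60 CPM in WT cells, with log2 fold changes of 0.80 (edgeR adjusted p = 2.73e-05) and 1.19 (edgeR adjusted p = 3.67e-07). Fkbp1a, which binds type I receptors and keeps them quiet without ligand, averaged 112 ± 0.464 CPM in KO clone 1, 117 ± 1.44 CPM in KO clone 2 and 61.2 ± 0.438 CPM in WT cells, with log2 fold changes of 0.87 (edgeR adjusted p = 9.43e-06) and 0.94 (edgeR adjusted p = 3.61e-06). Another 2 genes were picked after their values were seen, for their place beside Smad1. Smad5, its close relative, rose by 0.39 in KO clone 1 (edgeR adjusted p = 0.00867) and 0.36 in KO clone 2 (edgeR adjusted p = 0.0139) on the log2 scale. Smad4, the common partner, rose by 0.78 in KO clone 1 (edgeR adjusted p = 3.81e-05) and 0.73 in KO clone 2 (edgeR adjusted p = 6.48e-05). Smad9, the third receptor-activated SMAD of the branch, was below the filter with 0 reads in all 4 clone libraries and 3 and 9 reads in WT cells, and was likewise named after its values were seen.

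The extracellular antagonists and modulators included the largest fall among the 38 genes. Of 18 listed, 6 were tested, of which 4 rose and 2 fell in KO clone 1 and 2 rose and 2 fell in KO clone 2. Nbl1, a secreted BMP antagonist also called DAN, had 2.20 and 1.80 CPM in KO clone 1, 1.53 and 1.42 CPM in KO clone 2, and 22.1 and 28.8 CPM in WT cells. It fell by 3.67 on the log2 scale in KO clone 1 (SE 0.202, edgeR adjusted p = 8.47e-10) and by 4.11 in KO clone 2 (SE 0.215, edgeR adjusted p = 4.44e-10). Fstl3, a secreted binder of activins, averaged 17.8 ± 0.663 CPM in KO clone 1, 28.9 ± 1.58 CPM in KO clone 2 and 11.8 ± 1.93 CPM in WT cells, with log2 fold changes of 0.61 (edgeR adjusted p = 0.00305) and 1.31 (edgeR adjusted p = 2.27e-06). In counts that ignore strand the call in KO clone 1 was lost (0.32, edgeR adjusted p = 0.260). Crim1, a membrane protein that binds BMPs, averaged 94.8 ± 3.52 CPM in KO clone 1, 68.7 ± 5.61 CPM in KO clone 2 and 63.4 ± 9.0 CPM in WT cells. It rose in KO clone 1 (0.58, edgeR adjusted p = 0.00132; 0.03 with chromosome medians removed, edgeR adjusted p = 0.884), and its value in KO clone 2 was 0.11 (edgeR adjusted p = 0.477). Bambi, a decoy receptor without a kinase, had 0 reads in all 4 clone libraries and 7 and 8 reads in WT cells, below the filter, and was named after its values were seen.

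Genes for ligand and collagen processing moved in opposite directions. The list of proteases and their helpers had 4 of 7 tested, of which 1 rose and 1 fell in KO clone 1 and 2 rose and 2 fell in KO clone 2. Pcolce, which enhances the procollagen cutting of BMP1, had 19.1 and 17.1 CPM in KO clone 1, 20.8 and 18.2 CPM in KO clone 2, and 125 and 160 CPM in WT cells. It fell by 2.98 on the log2 scale in KO clone 1 (SE 0.147, edgeR adjusted p = 2.61e-10) and by 2.87 in KO clone 2 (SE 0.147, edgeR adjusted p = 3.30e-10). Its relative Pcolce2 averaged 117 ± 5.01 CPM in KO clone 1, 115 ± 2.93 CPM in KO clone 2 and 57.1 ± 4.14 CPM in WT cells, with log2 fold changes of 1.03 (edgeR adjusted p = 2.24e-06) and 1.01 (edgeR adjusted p = 2.53e-06). Pcsk6, a convertase that cuts BMP precursors, averaged 3.65 ± 0.0118 CPM in KO clone 1, 1.57 ± 0.643 CPM in KO clone 2 and 3.81 ± 0.788 CPM in WT cells. It fell in KO clone 2 (-1.26, edgeR adjusted p = 0.00166), and its value in KO clone 1 was -0.09 (edgeR adjusted p = 0.791).

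Targets other than the 4 above were mostly too low to test, with 4 of 12 past the filter. Of these, 3 rose in KO clone 1 and 2 rose in KO clone 2. These counts include Hey1 in both clones and Hey2 in KO clone 1, whose passage of the filter is described below. Of the 8 below the filter 4 had no read. Gata2 had 2 and 4 reads in KO clone 1, 0 and 1 in KO clone 2, and 5 and 22 in WT cells. Atoh8 had 0 and 1, 0 and 1, and 4 and 1 reads in the same order. Dlx3 and Hamp had reads in clones only, at most 1 in a library. These 4 were named after their values were seen. Hey1, a transcriptional repressor induced by BMP and Notch signals, had 2.47 and 2.07 CPM in KO clone 1, 2.12 and 2.46 CPM in KO clone 2, and 0.493 and 0.295 CPM in WT cells. It passed the filter on low counts through the clones alone, where it is high, so its p-values are a description only. It rose by a log2 fold change of 2.59 in KO clone 1 (SE 0.399, edgeR adjusted p = 5.63e-05) and 2.61 in KO clone 2 (SE 0.402, edgeR adjusted p = 4.83e-05). Runx2, a transcription factor of bone cells that BMPs induce, averaged 16.2 ± 0.653 CPM in KO clone 1, 13.0 ± 0.0575 CPM in KO clone 2 and 9.07 ± 0.139 CPM in WT cells, with log2 fold changes of 0.84 (edgeR adjusted p = 0.000242) and 0.52 (edgeR adjusted p = 0.00956). With chromosome medians removed neither call of Runx2 held, at 0.29 (edgeR adjusted p = 0.129) and 0.35 (edgeR adjusted p = 0.0705). Hey2, a relative of Hey1, had 16 and 15 reads in KO clone 1, 1 and 2 reads in KO clone 2, and 2 and 1 reads in WT cells. It passed the filter through KO clone 1 alone, where it is high, so its p-values are likewise a description only. It rose in KO clone 1 (2.56, SE 0.688, edgeR adjusted p = 0.00549), a call lost in DESeq2's Wald test (adjusted p = 0.0926) and without WT replicate 2 (edgeR adjusted p = 0.123). Id4, the remaining Id gene, named after its values were seen, had 2.34 and 2.47 CPM in KO clone 1, 3.0 and 3.11 CPM in KO clone 2, and 2.76 and 4.13 CPM in WT cells, with log2 fold changes of -0.56 (edgeR adjusted p = 0.0750) and -0.21 (edgeR adjusted p = 0.492).

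The E proteins, the helix-loop-helix partners that ID proteins bind, were all 3 tested, and none had a log2 fold change beyond 0.38 in either direction. Tcf12 averaged 106 ± 2.64 CPM in KO clone 1, 84.8 ± 5.41 CPM in KO clone 2 and 86.2 ± 7.40 CPM in WT cells, and passed the test in KO clone 1 (0.30, edgeR adjusted p = 0.0441), a call lost in 8 of 16 alternatives. Tcf4 averaged 66.0 ± 5.65 CPM in KO clone 1, 54.9 ± 1.07 CPM in KO clone 2 and 71.6 ± 4.66 CPM in WT cells, and passed the test in KO clone 2 (-0.38, edgeR adjusted p = 0.0135), a call lost in 4 of 16 alternatives, among them without WT replicate 1 and without either KO clone 2 library. Tcf3 averaged 109 ± 10.5 CPM in KO clone 1, 124 ± 13.0 CPM in KO clone 2 and 125 ± 34.9 CPM in WT cells, with edgeR adjusted p of 0.343 and 0.937.

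Most of the tested genes around Bmp7 were higher in the clones than in WT cells or not called. The 10 nearest tested genes, 5 on each side, span 922 kb of chromosome 2 from Aurka to Pmepa1os, in which 22 genes are annotated. Of these, 11 were tested, Bmp7 included, and of the 11 below the filter 7 had no read in any library. The nearest tested genes were Gm14303, whose start lies at -431 kb from that of Bmp7, and Rae1, at 59.8 kb on the other side. In KO clone 1, 5 of the 10 rose and 1 fell, and in KO clone 2, 6 rose and 1 fell. Of all 1057 tested genes of chromosome 2, 40.3% were called higher and 15.3% lower in KO clone 1, and 41.1% higher and 16.6% lower in KO clone 2. Rae1, an mRNA export factor, averaged 92.2 ± 1.35 CPM in KO clone 1, 115 ± 11.9 CPM in KO clone 2 and 56.2 ± 0.0426 CPM in WT cells, with log2 fold changes of 0.71 (edgeR adjusted p = 0.000116) and 1.03 (edgeR adjusted p = 2.71e-06). Rbm38, an RNA-binding protein gene at 80.2 kb, averaged 14.7 ± 1.18 CPM in KO clone 1, 19.4 ± 2.28 CPM in KO clone 2 and 13.9 ± 1.34 CPM in WT cells, and rose in KO clone 2 (0.47, edgeR adjusted p = 0.0171), with a value of 0.08 in KO clone 1 (edgeR adjusted p = 0.701). Pmepa1, a negative regulator of transforming growth factor beta signalling at 336 kb, averaged 185 ± 8.10 CPM in KO clone 1, 204 ± 1.98 CPM in KO clone 2 and 88.9 ± 9.55 CPM in WT cells, with log2 fold changes of 1.06 in KO clone 1 and 1.20 in KO clone 2. The one neighbour that fell was Zbp1, a nucleic acid sensor at 279 kb, which averaged 0.0886 ± 0.0617 CPM in KO clone 1, 0.220 ± 0.189 CPM in KO clone 2 and 0.906 ± 0.113 CPM in WT cells (log2 fold changes -3.23 and -2.11, edgeR adjusted p = 0.00111 and 0.00827). Zbp1 passed the filter through WT cells alone, where it is high, so its p-values are a description only. On the far side Aurka, Cstf1 and Rtf2 rose in both clones, by 0.34, 0.30 and 0.38 in KO clone 1 and 0.88, 0.65 and 0.61 in KO clone 2 on the log2 scale, and Fam209 and Gm14303 did not pass the test. Over the tested genes of chromosome 2 the median log2 fold change was 0.26 in KO clone 1 and 0.29 in KO clone 2, so the chromosome that carries Bmp7 and Id1 stood above the genome's median in both.

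**Figure D5:**
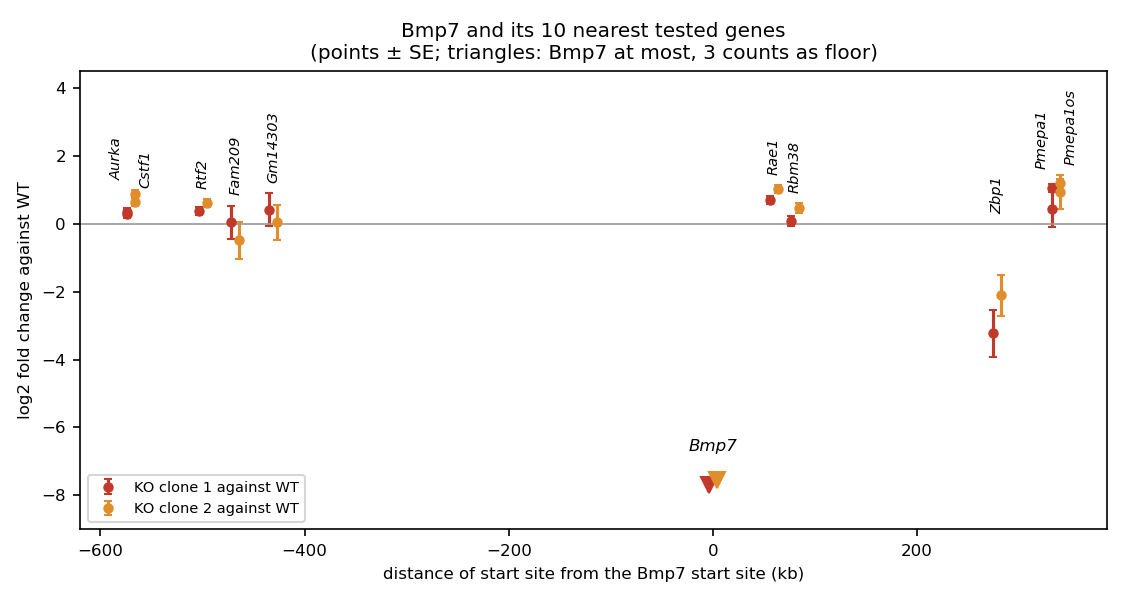
Log2 fold change against WT (vertical axis, with SE) of the 10 tested genes nearest to Bmp7, by the distance of their start from that of Bmp7 in kilobases; triangles mark the bound for Bmp7 itself, at most -7.70 in KO clone 1 and -7.54 in KO clone 2. Zbp1 lies lowest of the neighbours, at -3.23 and -2.11, and Fam209 lies at 0.05 in KO clone 1 and -0.48 in KO clone 2; points of Aurka and Cstf1, and of Pmepa1 and its antisense gene Pmepa1os, lie close together.

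The pattern of Bmp7 was shared by many genes. Correlations were ranked over the 13755 tested genes. Left out were the 10 genes and genes that had a Gm number, Rik, accession, pseudogene or mitochondrial symbol. Names and counts here are of the genes kept. By Pearson's correlation of log2 CPM over the 6 libraries, the nearest were Whrn, Eomes, Capsl, Map9 and Ifi44, all at 0 in the 4 clone libraries, and 275 of the genes kept had r above 0.99. Of these 5, Eomes, a T-box transcription factor, had 9.67 and 11.1 CPM in WT cells. For Id1 the nearest were Ccdc12, Traf3 and Svil (r from 0.9980 to 0.9987), among 47 genes above 0.99. For Smad6 they were Fam227a, Emc9 and Ilkap (r from 0.991 to 0.994), the only 3 of the genes kept that were above 0.99. These values describe 6 libraries in 3 groups and carry no test.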

How the data were processed

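RNA of 6 libraries was sequenced after ribosomal RNA depletion with a stranded kit, per the labels' protocols. Counts of reads per gene, raw and not normalized, were deposited by the authors in a table of unstranded, forward and reverse columns; STAR 2.6.0c and GRCm38 are named in the submitters' processing notes. The reverse column, which held 92.3 to 95.7% of stranded gene reads, was used. Rows without a gene were dropped. The share of reads assigned to genes was 50.6 and 51.9% in KO clone 1, 53.1 and 52.1% in KO clone 2, and 48.6 and 43.2% in WT cells. Both shares were lowest in WT replicate 2, and their part in the results was not tested. Of 54146 IDs, 54079 matched GENCODE M21 (release 21). Genes were filtered with filterByExpr (13755 of 26172 with a read), scaled by TMM and fitted in edgeR 4.0.16 (R 4.3.3) with the robust quasi-likelihood test over all 6 libraries and 3 residual degrees of freedom; the biological coefficient of variation was 10.3%. CPM is reads per 1000000 TMM-scaled gene reads. DESeq2 1.42.0 and limma 3.58.1 (voom) were alternatives, beside other scalings, filters, unstranded counts, a replicate block, removal of chromosome medians, and leaving out each library. The 10 genes and the lists were chosen with earlier results of these data known. From each list the 3 tested genes with the smallest adjusted p, every gene called between the clones, 5 neighbours a side and the nearest genes by correlation were named. The scripts were tested on simulated data.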

Additional observations from a re-analysis of the deposited data

Results flagged for a closer look

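For 14 genes the change against WT differed between the clones in the direct test of KO clone 2 against KO clone 1 (edgeR's quasi-likelihood test, Benjamini-Hochberg adjustment over all genes). Values are log2 differences, KO clone 2 over KO clone 1. Of the 10 genes, Bmp1 differed by 0.397 (edgeR adjusted p = 0.0339) and Id1 by 0.479 (edgeR adjusted p = 0.0411), in addition to being above WT in both clones. Of the 38 other pathway genes 12 differed, 4 higher and 8 lower in KO clone 2, where 23.5% of all genes were called.

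Higher in KO clone 2 were Fstl3 by 0.700 (edgeR adjusted p = 0.00226), Eng, an auxiliary receptor, by 0.566 (edgeR adjusted p = 0.0105), Tob1, an inhibitor of BMP SMADs, by 0.526 (edgeR adjusted p = 0.0357), and Smurf1 by 0.391 (edgeR adjusted p = 0.0201). Eng averaged 30.6 ± 4.17 CPM in KO clone 2 and 20.6 ± 0.623 CPM in KO clone 1, with 33.2 ± 5.51 CPM in WT cells. Tob1 averaged 12 ± 0.286 CPM in KO clone 2 and 8.32 ± 1.08 CPM in KO clone 1, with 14.8 ± 2.79 CPM in WT cells.

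Lower in KO clone 2 were Hey2 at -3.10 (edgeR adjusted p = 0.00366) and Pcsk6 at -1.17 (edgeR adjusted p = 0.00684). Hey2 passed the filter through KO clone 1 alone, where it is high, so its p-value is a description only. Twsg1, which binds BMPs together with chordin, stood at -0.708 (edgeR adjusted p = 0.000607), with 74.3 and 79.9 CPM in KO clone 2, 124 and 128 CPM in KO clone 1, and 99.3 and 87.0 CPM in WT cells between them. Crim1 stood at -0.464 (edgeR adjusted p = 0.0151) and Smurf2, a ubiquitin ligase like Smurf1, at -0.425 (edgeR adjusted p = 0.0156), so the pair of Smurf genes differed in opposite directions. Rgmb, a co-receptor, stood at -0.414 (edgeR adjusted p = 0.0474), Acvr2a, a type II receptor, at -0.398 (edgeR adjusted p = 0.0402), and Ski, a SMAD corepressor, at -0.396 (edgeR adjusted p = 0.0240).

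Each of these calls except that of Twsg1 was lost without at least 1 of the 4 clone libraries. Rgmb was also lost with DESeq2 size factors (edgeR adjusted p = 0.0528), in DESeq2's test (adjusted p = 0.0896), in unstranded counts (edgeR adjusted p = 0.0625) and with a replicate block (edgeR adjusted p = 0.0511). Acvr2a was also lost with no filter (edgeR adjusted p = 0.0568), in DESeq2's test (adjusted p = 0.0979), in unstranded counts (edgeR adjusted p = 0.0539) and with the block (edgeR adjusted p = 0.0683), and Tob1 in DESeq2's test (adjusted p = 0.0638). With chromosome medians removed the calls of Bmp1, Id1, Rgmb, Ski, Tob1, Twsg1 and Crim1 were lost.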

How the results depend on the processing

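Against WT, the signs of Bmp1, Bmpr2, Smad6, Id1, Id2 and Id3 were the same under all 16 alternatives in both clones. With chromosome medians removed Bmpr1a in KO clone 1 turned to 0.13, and Smad1 turned to -0.17 in KO clone 1 and -0.13 in KO clone 2. Under that setting Twsg1 in KO clone 1 turned to -0.11 (edgeR adjusted p = 0.454), the pathway genes called between the clones numbered 7, and the 2 of the 8 BMP genes called between the clones were Bmpr1a (-0.47, edgeR adjusted p = 0.0206) and Id3 (0.47, edgeR adjusted p = 0.0454) in place of Bmp1 and Id1; the cause was not tested. Leaving out 1 library in turn gave between the clones 766 to 4612 calls over all genes (3232 with all 6 libraries), 1 to 14 among the pathway genes, and 0 to 2 among the 8 BMP genes; the 0 came without any 1 of the 4 clone libraries, where 1 to 2 had an unadjusted p under 0.05, while DESeq2 and limma-voom called 2 with all libraries. Where a clone keeps 1 library, its spread is taken from the remaining groups. Whether libraries with the same replicate number share an origin is not given in the labels. Correlations of same-numbered deviations were 0.00474 between the clones, -0.156 between KO clone 1 and WT, and 0.0819 between KO clone 2 and WT. With 2 libraries a group these values cannot settle it. With a replicate block 6704, 7130 and 2942 genes were called in KO clone 1, KO clone 2 and between the clones, and 25, 21 and 10 pathway genes. With the numbers of KO clone 1 crossed, a setting chosen after seeing the data, the calls were 7229, 7572 and 3703. Upper-quartile scaling moved the median of all genes in KO clone 2 to -0.11. Of 1195 fold changes of the 25 named pathway genes under alternatives, 70 lost the call, 15 gained it and 34 changed sign, 33 of them past the threshold in neither setting. With 2 libraries a group and 0 reads of Bmp7 or Bmp4, depth limits their level in the clones to the bounds given.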
